A study of Mus musculus with 6 samples.

Results

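Interferon-stimulated effector genes were examined in sorted mammary basal cells from wild type mice and from mice labelled as lacking Trp53 and Cdkn2a. They are the genes whose products carry out the antiviral and regulatory work of the type I interferon response. The 40 genes were listed by name, leaving out the oligoadenylate synthetase family, the interferon-inducible GTPases of the GBP and IRG families and the antigen presentation genes. They were chosen from an earlier result on the same arrays, where such genes stood above wild type in the knockout, so the genotype difference that follows is a description of that choice. Of the 40 genes, 36 had a row of their own among the 22180 genes measured. Dtx3l, Trex1 and Ifi27l2a lay on rows that carried several gene symbols, Ifi44 had no row under its symbol, and these 4 were not analysed here.

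The samples were basal cells, the outer layer of the mammary epithelium, freshly sorted from adult virgin female mice aged 8 to 14 weeks. The 3 wild type samples and the 3 knockout samples, labelled Trp53-/-, p16ink4a-/- and p19arf-/-, were called biological replicates in the labels and had 1 array each. Trp53 encodes the transcription factor p53, and Cdkn2a encodes p16Ink4a and p19Arf. Cdkn2a signal was not lower in the arrays labelled knockout, at 6.25, 6.31 and 6.39 against 6.42, 5.84 and 6.48 in wild type (log2 fold change 0.07, SE 0.197). Whether its probes lie in the deleted part is not given in the sources used here, and Trp53 had no row under its symbol, so the genotype labels were not checked by either gene. The sources used here do not give the strain or how the alleles were made, and no treatment was named for either group. Values are log2 expression, so a difference of 1 is a doubling. Cells came from digested glands and were depleted of most blood and endothelial cells with beads before sorting.

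Type I interferons bind the receptor chains Ifnar1 and Ifnar2 on the cell surface, and the kinases Jak1 and Tyk2 then activate transcription factors of the STAT family. With Irf9 these form a complex that binds the interferon-stimulated response element in promoters and switches on effector genes. Their products block viral entry, bind or modify foreign RNA, conjugate the ubiquitin-like protein ISG15, or feed back on the pathway. Epithelial cells of many tissues express part of this set at a low level without infection.

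The response element is what many of these genes have in common in their promoters, and it is shown here because genes that carried it did not all differ between genotypes. RefSeq promoter windows (build GRCm38.p6, 250 bases before to 50 after a start site) were matched for 30 of the 40 genes. The motif searched was GAAANNGAAA on both strands, and matches could overlap. A match was found for 12 of the 30, or 40.0%, against 3.99% of 27025 genes and 3.44% of 32851 windows in the whole table. Allowing a gap of 1 to 3 bases between both GAAA parts gave 20 of 30, against 9.91% of all genes. The gamma-activated site, searched as TTCNNNGAA, was found in 6 of the 30 and in 9.55% of all genes. A match is a description of the letters and not a known binding site. The 8 stretches below hold matches upstream of the start site, which are in capitals, written 5′ to 3′ on the gene's strand with 10 bases on each side.
Ifit1: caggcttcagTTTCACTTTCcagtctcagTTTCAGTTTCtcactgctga
Ifit3: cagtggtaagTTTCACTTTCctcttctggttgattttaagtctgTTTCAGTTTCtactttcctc
Isg15: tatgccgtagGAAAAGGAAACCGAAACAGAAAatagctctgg
Rsad2: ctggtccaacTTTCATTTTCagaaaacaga
Ifitm2: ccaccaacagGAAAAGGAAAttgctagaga
Bst2: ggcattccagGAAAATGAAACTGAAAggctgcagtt
Ddx60: gtgatgaatgGAAACCGAAActtaaagctt
Trim30a: agttctttagTTTCTTTTTCtcagttcctg

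These stretches lie at chr19:34640775-34640823 (plus strand) for Ifit1, chr19:34583363-34583426 (plus) for Ifit3 and chr4:156200865-156200906 (minus) for Isg15. Those of Rsad2, at chr12:26456553-26456582, of Ifitm2, at chr7:140955988-140956017, and of Bst2, at chr8:71537577-71537612, are on the minus strand. That of Ddx60 is at chr8:61928024-61928053 on the plus strand and that of Trim30a at chr7:104465210-104465239 on the minus strand. Ifit1 and Ifit3 carry the same pair of 10-base matches in the same order, starting 104 and 85 bases upstream in Ifit1 and 156 and 122 bases upstream in Ifit3. In Isg15 3 matches overlap, the first starting 78 bases and the last 66 bases upstream. Ifitm3, Ddx58, Ifih1 and Eif2ak2 had their matches after the start site, and these are not printed. Nor is a second upstream match of Ddx60, which has the same 10 letters as the first and starts 19 bases upstream, or a match after the start site in a second window of Trim30a.

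Across the 36 measured genes, 31 had a higher mean in the knockout and 5 a lower one. The median log2 fold change was 0.43, where the median over all genes was -0.01. For 15 of the 36 every knockout array lay above every wild type array, and for 0 every knockout array lay below. Among all genes 3.63% lay wholly above and 4.05% wholly below. Between arrays of the same replicate number, 22 of the 36 were higher in the knockout in all 3 pairs and 0 lower in all 3, against 11.5% and 12.3% of all genes. Since the genotype difference led to the choice of these genes, nothing is read from these counts. In the limma fit over all genes 0% passed at an adjusted p under 0.05 in either direction, these 36 included, and the smallest adjusted p of any gene was 0.818. An unadjusted p under 0.05 was reached by 736 of the 22180 genes, 14 of the 36 among them, and nothing is read from these counts either. When the replicate number was fitted as a block it was reached by 1112 of the 22180, and that fit called 0 genes too. "Higher" and "lower" below therefore describe measured means, given with the standard error (SE) of the fit.

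**Figure D1:**
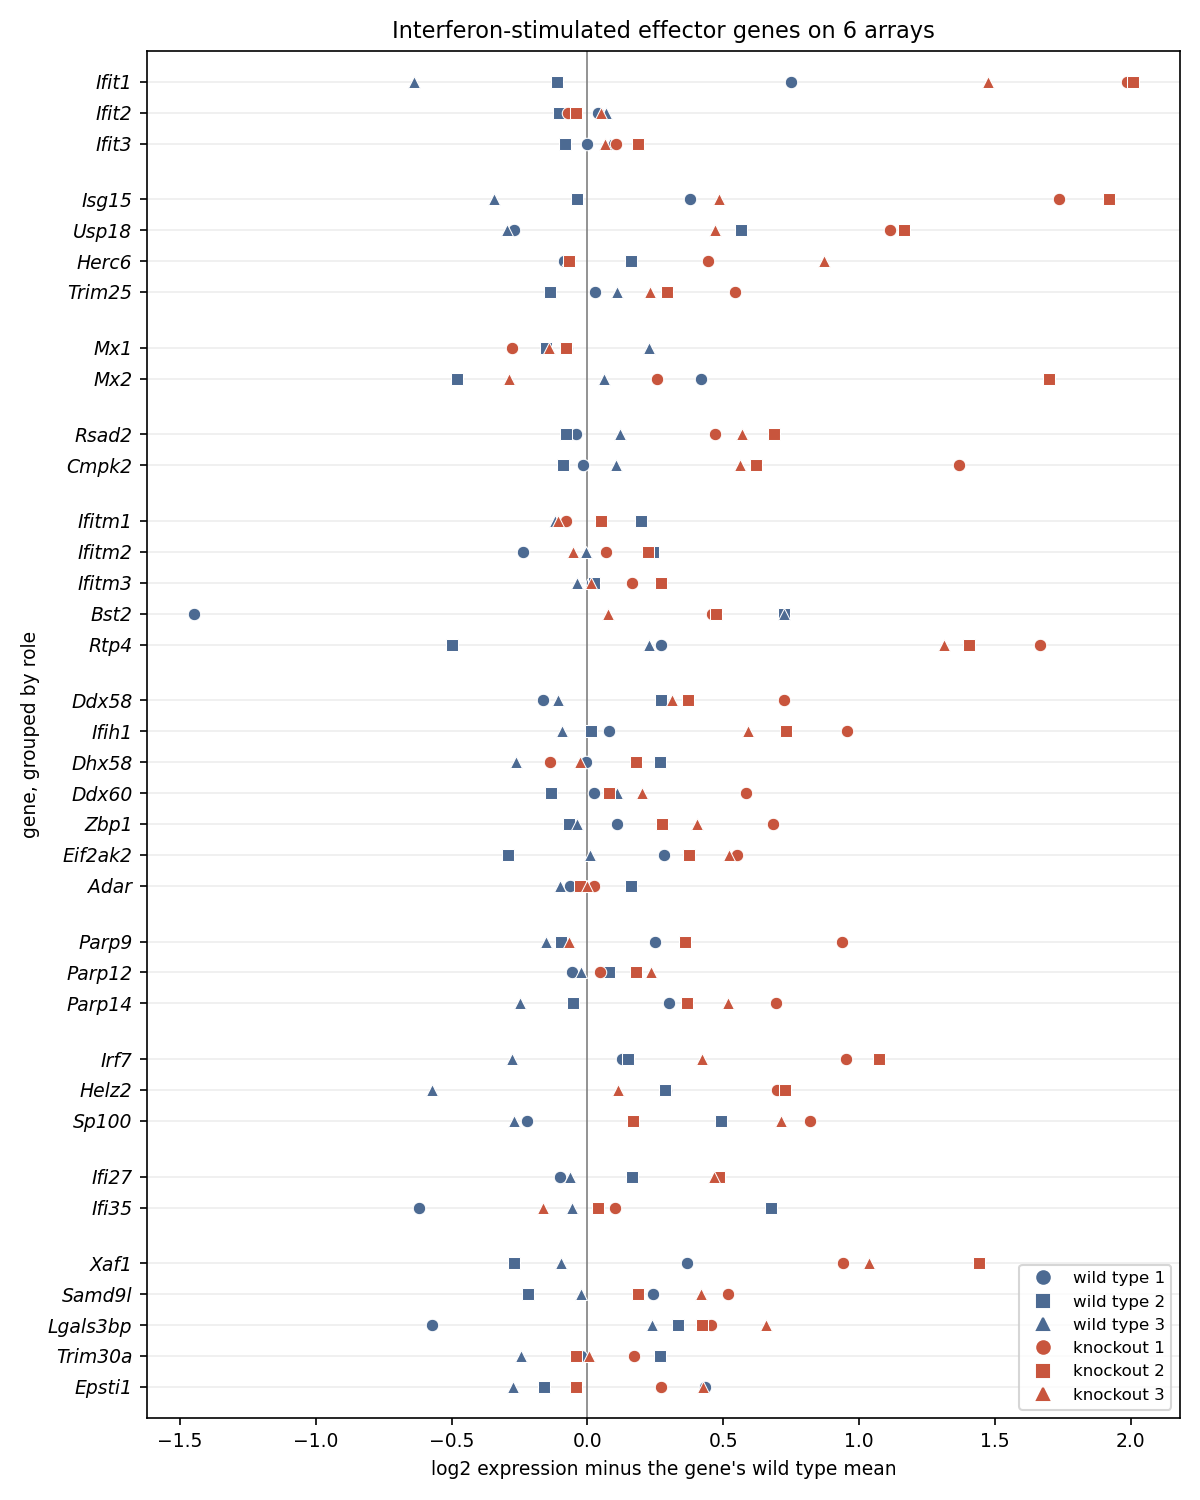
Log2 expression of each of the 36 measured genes on the 6 arrays, as the difference from the gene's own wild type mean, with genes grouped by role on the vertical axis, wild type in blue, knockout in red and the symbol shape giving the replicate number. Ifit1, Isg15, Rtp4 and Xaf1 have all or most of their knockout points far to the right, Mx2 has 1 such point at 1.70, and Ifit2, Ifitm1, Mx1 and Adar show both colours mixed near 0.

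The IFIT proteins bind foreign RNA and restrain its translation, and the 3 genes differed sharply among themselves. Ifit1 read 7.01, 6.15 and 5.62 in wild type replicates 1 to 3 and 8.25, 8.27 and 7.73 in the knockout replicates. All 3 knockout values lay above the wild type values, with a gap of 0.72 between the nearest arrays, and the log2 fold change was 1.82 (SE 0.330), or 3.54 times. Ifit2 read 4.03, 3.88 and 4.05 in wild type and 3.92, 3.95 and 4.04 in the knockout, so the groups overlapped. Its mean lay among the dimmest 25% of genes, below 4.57, where an array reports little beyond its own background. Ifit3 is not dim, and read 7.07, 6.99 and 7.15 against 7.18, 7.26 and 7.14. Its log2 fold change was 0.12 (SE 0.153), although its promoter holds the same 2 matches as that of Ifit1. Ifit3 has a near-identical copy, Ifit3b, whose own row read between 3.66 and 4.20 on the 6 arrays, and how signal divides between such copies was not tested.

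Genes of the ISG15 system were higher in the knockout in all 4 cases. ISG15 is a ubiquitin-like protein that is attached to other proteins, Herc6 is its main ligase in the mouse, Usp18 removes it and also blocks the interferon receptor, and Trim25 is a ligase that activates the RNA sensor encoded by Ddx58. Isg15 read 9.39, 8.98 and 8.67 in wild type and 10.75, 10.93 and 9.50 in the knockout. Knockout replicate 3 was only 0.11 above the highest wild type array, and the other knockout arrays were much farther above it. The log2 fold change was 1.38 (SE 0.358), or 2.60 times, and 1.83 without that array. Usp18 read 6.67, 7.51 and 6.65 in wild type and 8.06, 8.11 and 7.42 in the knockout, a log2 fold change of 0.92 (SE 0.283). Its groups overlapped because wild type replicate 2 stood above knockout replicate 3, while between arrays of the same number the knockout was higher by 1.39, 0.60 and 0.77. Trim25 read 7.34, 7.17 and 7.42 against 7.85, 7.60 and 7.54, a log2 fold change of 0.36 (SE 0.170) with no overlap. Herc6 had a different order of arrays, with 7.21, 6.70 and 7.64 in the knockout against 6.68, 6.93 and 6.69 in wild type. Its log2 fold change of 0.42 was 0.19 without knockout replicate 3.

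The Mx GTPases, which trap viral nucleoproteins and are disabled in many inbred mouse strains, showed no common pattern. Mx1 was dim, at 3.703, 3.624 and 4.004 in wild type and 3.499, 3.697 and 3.637 in the knockout. Mx2 read 5.55, 4.66 and 5.20 in wild type and 5.39, 6.84 and 4.85 in the knockout. Knockout replicate 2 alone stood high, and the log2 fold change of 0.56 (SE 0.450) became -0.02 without it.

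Rsad2 (viperin) and Cmpk2 are neighbouring genes whose products make and supply a nucleotide that halts viral RNA synthesis, and in both the genotypes did not overlap. Cmpk2 read 6.49, 6.41 and 6.61 in wild type and 7.87, 7.12 and 7.06 in the knockout, a log2 fold change of 0.85 (SE 0.230). Rsad2 read 5.88, 5.85 and 6.05 against 6.39, 6.61 and 6.50, a log2 fold change of 0.57 (SE 0.150). In Rsad2 the 3 arrays of each genotype lay close together, with an SD of 0.11 in both.

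Membrane proteins held both the gene with the widest gap between genotypes and several that barely differed. Rtp4, a receptor transporter protein that also restricts viruses, read 8.09, 7.32 and 8.04 in wild type and 9.48, 9.22 and 9.13 in the knockout. The nearest arrays of the 2 genotypes were 1.04 apart, and the log2 fold change was 1.46 (SE 0.233), or 2.75 times. The IFITM proteins, which hinder fusion of viral and cell membranes, gave small differences. Ifitm1 was dim and read 3.74, 4.02 and 3.70 against 3.74, 3.87 and 3.71. Ifitm2 and Ifitm3 were strongly expressed in wild type already, at 12.38 ± 0.24 and 12.09 ± 0.03 (SD, n = 3), and at 12.46 ± 0.14 and 12.24 ± 0.13 in the knockout. Their log2 fold changes were 0.08 and 0.15, with SE of 0.137 and 0.104, and both promoters hold a response element match. 

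Bst2 (tetherin, which holds budding virus particles at the cell surface) differed more among wild type arrays than between genotypes. It read 7.26, 9.43 and 9.43 in wild type and 9.17, 9.18 and 8.78 in the knockout. Wild type replicate 1 was the lowest and the other wild type arrays were the highest. The log2 fold change of 0.34 (SE 0.512) became -0.39 without wild type replicate 1 and 0.70 without wild type replicate 2 or 3. Ifi35, an adaptor protein induced by interferon, also varied most among wild type arrays. Its values of 7.40, 8.70 and 7.97 in wild type enclosed the 8.12, 8.06 and 7.86 of the knockout, and its log2 fold change of -0.01 became -0.32 without wild type replicate 1 and 0.33 without wild type replicate 2. Lgals3bp, a secreted glycoprotein that binds galectins, read 6.85, 7.75 and 7.66 in wild type and 7.87, 7.84 and 8.08 in the knockout. The groups did not overlap, but the log2 fold change of 0.51 (SE 0.248) was 0.23 without wild type replicate 1. These 3 genes, singled out after their values were seen, were the only ones of the 36 in which wild type replicate 1 lay at least 0.5 below both other wild type arrays. Luminal epithelial markers, all but Epcam of the 8 listed, were low on the same array as well. The mean of the 8, Krt8, Krt18 and Krt19 among them, was 8.40, 9.46 and 9.33 in wild type and 8.66, 8.77 and 8.27 in the knockout. All 8 had a lower knockout mean, at a median log2 fold change of -0.53. Every knockout array lay below every wild type array for 1 of the 8, and for 4.05% of all genes. In sorted bulk samples fewer cells of a type and less RNA per cell cannot be told apart, and the part of luminal RNA in these 3 genes was not tested.

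**Figure D2:**
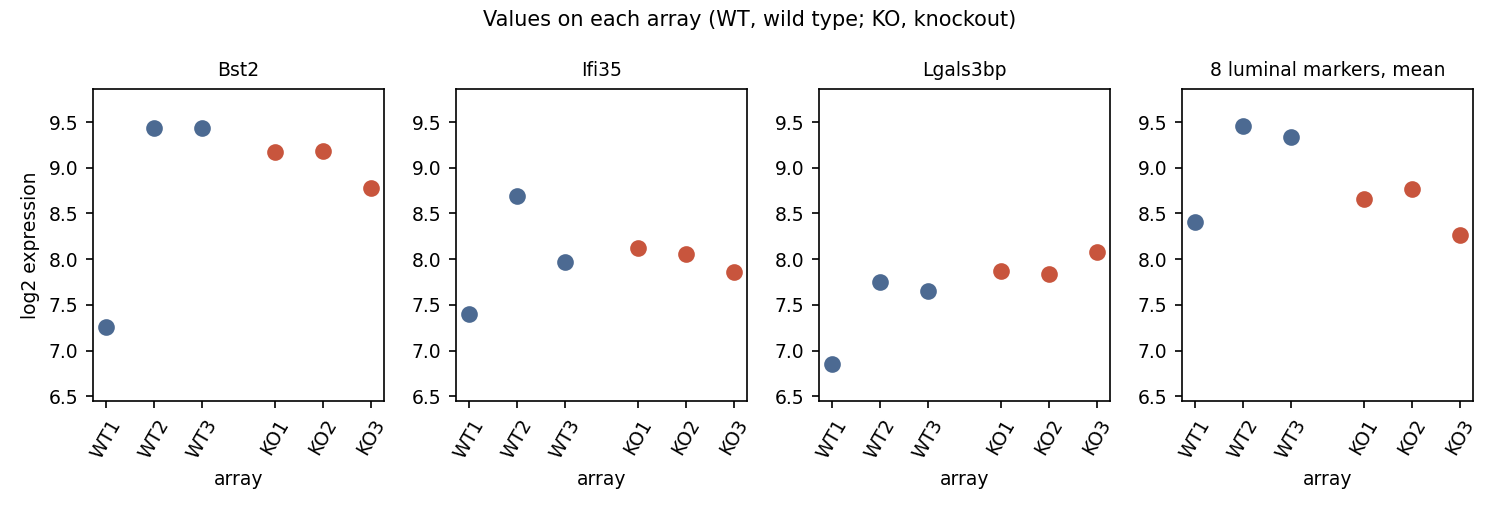
Log2 expression on each array for Bst2, Ifi35, Lgals3bp and the mean of 8 luminal epithelial markers, with wild type (WT) in blue and knockout (KO) in red on 1 shared vertical scale. In every panel WT1 lies well below WT2 and WT3, at 7.26 against 9.43 and 9.43 for Bst2.

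Nucleic acid sensors and RNA-acting enzymes split into members that stood higher and members that did not differ. Ifih1 encodes MDA5, a sensor of long double-stranded RNA, and read 7.66, 7.59 and 7.49 in wild type and 8.53, 8.31 and 8.17 in the knockout. The spread within each genotype was small, the nearest arrays were 0.51 apart, and the log2 fold change was 0.76 (SE 0.169). Ddx58, which encodes the sensor RIG-I, read 7.39, 7.83 and 7.45 against 8.28, 7.92 and 7.86, a log2 fold change of 0.47 (SE 0.195) with a gap of only 0.04. Zbp1, a sensor of Z-form nucleic acids, and Eif2ak2, which encodes the RNA-activated kinase PKR, had log2 fold changes of 0.45 and 0.48, also with no overlap. Adar, which edits adenosine in double-stranded RNA and so keeps the cell's own RNA from being sensed, read 7.51, 7.73 and 7.47 in wild type and 7.59, 7.54 and 7.57 in the knockout. Its log2 fold change was 0.00 (SE 0.159). Dhx58, which encodes the third helicase of the RIG-I family (LGP2), also had a log2 fold change of 0.00 (SE 0.174), with overlapping arrays. Ddx60, a further helicase, was dim and had a log2 fold change of 0.29 (SE 0.160), or 0.14 without knockout replicate 1.

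The PARP family is known for adding ADP-ribose to other proteins, and the 3 measured genes were higher by differing amounts. Parp14 read 7.24, 6.89 and 6.69 in wild type and 7.63, 7.30 and 7.46 in the knockout, a log2 fold change of 0.53 (SE 0.194) with no overlap. Parp12 read 8.25, 8.38 and 8.28 against 8.35, 8.48 and 8.54, a log2 fold change of 0.15 (SE 0.155). Parp9, which works as a pair with Dtx3l, had values of 7.35, 6.77 and 6.35 in the knockout against 6.26 to 6.67 in wild type. Its log2 fold change of 0.41 was 0.14 without knockout replicate 1.

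Among nuclear factors, Irf7 is the transcription factor that amplifies interferon production after the first signal. It read 7.30, 7.32 and 6.89 in wild type and 8.12, 8.25 and 7.59 in the knockout, a log2 fold change of 0.81 (SE 0.221) with no overlap. Knockout replicate 3 was the lowest of the knockout arrays here, as in Isg15 and Usp18. Helz2, a helicase that acts as a transcriptional coactivator, read 7.55, 7.54 and 6.69 against 7.96, 7.99 and 7.37. The groups overlapped, each knockout array lay above the wild type array of the same number, by 0.41, 0.44 and 0.69, and the log2 fold change of 0.51 was 0.23 without wild type replicate 3. Sp100, a component of PML nuclear bodies, had a log2 fold change of 0.57 (SE 0.255) on its brightest row. The gene had 3 further rows, with log2 fold changes of 0.09, 0.25 and -0.03, so its value depends on the row. The second rows of Lgals3bp and Ifi35 gave 0.02 and 0.22, where the brighter rows gave 0.51 and -0.01.

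Ifi27, which encodes a small mitochondrial and nuclear membrane protein, was well expressed in wild type and had the tightest knockout values of the 36. It read 11.00, 11.27 and 11.04 in wild type and 11.58, 11.59 and 11.57 in the knockout, an SD of 0.01 in the latter. The log2 fold change was 0.48 (SE 0.118). In contrast to Ifitm2 and Ifitm3, this bright gene showed separate groups, with a gap of 0.30.

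The other effectors were led by Xaf1, a pro-apoptotic factor that antagonises the inhibitor XIAP. It read 6.91, 6.27 and 6.44 in wild type and 7.48, 7.98 and 7.57 in the knockout, a log2 fold change of 1.14 (SE 0.220), or 2.20 times, with no overlap. Samd9l, which restrains viral and cell translation, had a log2 fold change of 0.37 (SE 0.185), with knockout replicate 2 inside the wild type range. Trim30a, a restraint on inflammatory signalling, read 4.32, 4.61 and 4.10 against 4.51, 4.30 and 4.34 and was dim. Epsti1 was dim as well, with a log2 fold change of 0.22 (SE 0.206) that was 0.08 without wild type replicate 3 and 0.43 without wild type replicate 1. In all 6 of the 36 genes were dim, and their median log2 fold change was 0.01, against 0.48 in the other 30.

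The size of the difference varied by knockout array. Relative to the wild type mean, the median gene of the 36 stood 0.50 higher on knockout replicate 1, 0.33 on replicate 2 and 0.36 on replicate 3, where the median over all genes was -0.01 on each. Knockout replicate 1 lay above every wild type array for 24 of the 36 genes, replicate 2 for 22 and replicate 3 for 20, while 19.7%, 20.7% and 20.8% of all genes did so. Which knockout array was lowest was counted for the 36 genes only, not over all genes. Knockout replicate 3 was the lowest of the knockout arrays for 19 of the 36 genes, replicate 2 for 11 and replicate 1 for 6. Isg15, for instance, stood 1.74, 1.92 and 0.49 above the wild type mean on the 3 arrays, while Rtp4 stood 1.67, 1.41 and 1.31 above it. Ifit1 stood 1.99, 2.01 and 1.47 above. Herc6 and Sp100 were among those lowest on knockout replicate 2. Immediate early and dissociation stress genes, such as Fos and Egr1, had list means of 9.98, 10.28 and 9.49 in wild type and 10.28, 10.81 and 9.75 in the knockout, also lowest at replicate 3. Of these 18 genes 17 had a higher knockout mean, at a median log2 fold change of 0.39. Separate groups were seen in 0 of them, against 3.63% of all genes wholly above and 4.05% wholly below. Their part in the differences between arrays or between genotypes was not tested.

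**Figure D3:**
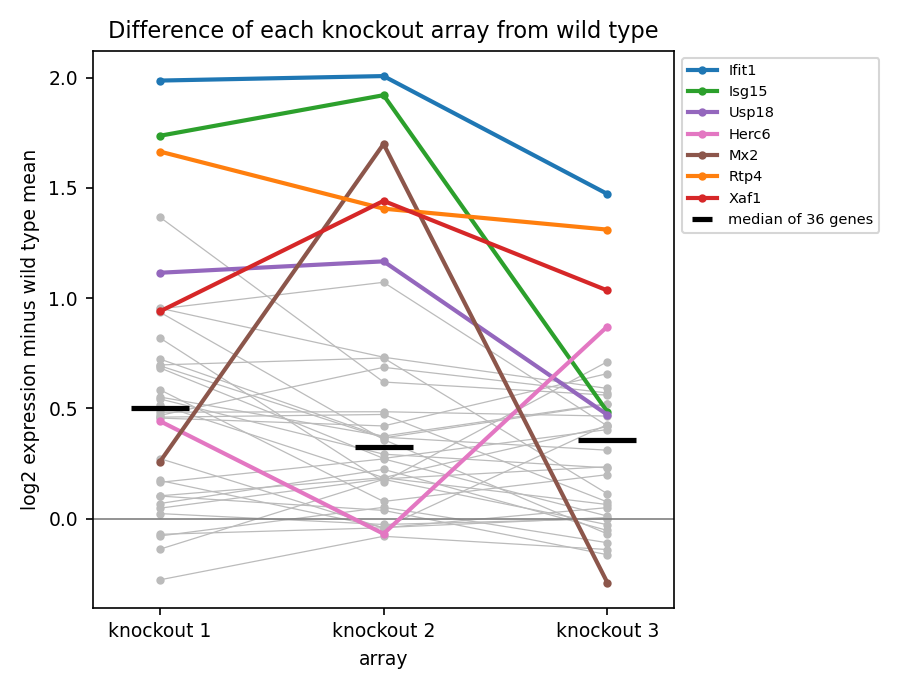
Difference of each knockout array from the wild type mean, in log2 units on the vertical axis, for the 36 measured genes, where a line joins the values of 1 gene, 7 genes are coloured and black bars mark the medians (the arrays have no order). The bars stand at 0.50, 0.33 and 0.36, and Isg15 lies at 0.49 on knockout 3, where Ifit1 and Rtp4 lie at 1.47 and 1.31.

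Genes with and without the response element in the promoter window overlapped widely in their differences between genotypes. Of the 27 measured genes with a promoter window, 12 had a match. Of these 12, 6 had all knockout arrays above all wild type arrays, and their median log2 fold change was 0.40. Of the 15 without a match, 5 had all knockout arrays above, and their median was 0.37. Among all genes 3.63% lay wholly above. Since the genotype difference led to the choice of these genes, nothing is read from either count. Cmpk2, Irf7 and Xaf1 were among the 15, whereas Ifit3, Ifitm2, Ifitm3 and Trim30a were among the 12. Xaf1 had a match once a gap of 1 to 3 bases was allowed, and Cmpk2 and Irf7 did not. With a gap of 1 to 3 bases the medians were 0.47 in 19 genes with a match and 0.29 in 8 without. Usp18, Mx1, Mx2, Rtp4, Dhx58, Zbp1, Parp9, Parp14 and Ifi27 were not part of this comparison.

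Components upstream of the effectors, from lists of other interferon pathway genes, had medians nearer 0, a difference that was not tested. None of these genes passed the fit over all genes in either direction. Of 19 interferon ligand genes measured, 10 were higher and 9 lower, with a median log2 fold change of 0.07. Several of these genes were dim, and the median was 0.03 without the dim ones. No ligand gene had separate groups, where 3.63% of all genes lay wholly above and 4.05% wholly below, so nothing is read from this. Ifnb1, the first interferon made after sensing, read 3.89, 3.65 and 4.32 in wild type and 4.27, 4.36 and 4.05 in the knockout and was dim. Of 11 receptor and signal transducer genes 5 were higher and 6 lower, with a median of -0.02. Ifnar1 had a log2 fold change of -0.10 (SE 0.180). Irf9, which is itself induced by interferon, read 8.76, 8.36 and 8.20 against 9.05, 9.27 and 8.28, a log2 fold change of 0.42 (SE 0.272). Of 11 sensing adaptors and kinases 3 were higher and 8 lower, with a median of -0.04. Mavs, the adaptor of the RIG-I family, read 6.49, 6.56 and 6.45 against 6.30, 6.33 and 6.18, wholly below, with a log2 fold change of -0.23 (SE 0.145). When 1 array was left out, the ligand median lay between -0.08 (without wild type replicate 2) and 0.16 (without wild type replicate 1) and the receptor median between -0.05 and 0.02. The median of the sensing list lay between -0.17 (without wild type replicate 1) and -0.01.

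Feedback and related genes gave a mixed picture. Of 7 measured genes in the feedback list 5 were higher and 2 lower, with a median log2 fold change of 0.22. It lay between 0.02 (without wild type replicate 2) and 0.38 (without wild type replicate 1) when 1 array was left out. Socs3, an inhibitor of JAK signalling, had a log2 fold change of 0.59 (SE 0.439). Pias1, an inhibitor of activated STAT proteins, had one of 0.31 (SE 0.185) with no overlap. Isg20 had one of -0.27 (SE 0.171), wholly below, and is an interferon-induced exonuclease rather than an inhibitor. Of 7 genes linked more closely to interferon gamma, 5 were higher and 2 lower, with a median of 0.09. It lay between -0.02 (without wild type replicate 2) and 0.32 (without wild type replicate 1) when 1 array was left out. Irf1 read 6.80, 6.89 and 6.17 against 7.32, 8.27 and 6.72, a log2 fold change of 0.82 (SE 0.368). Its arrays overlapped and had the order of the immediate early list, with replicate 2 on top and replicate 3 at the bottom in each genotype.

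The 2 interferon-induced families that were left out of the 40 genes had members with larger and with smaller differences. In the oligoadenylate synthetase family 7 of 7 measured genes were higher, with a median of 0.28 that was 0.07 when knockout replicate 2 was left out and 0.43 when wild type replicate 1 was. Oas1g read 3.05, 3.31 and 3.11 in wild type, well inside the dim range, and 6.75, 5.02 and 4.79 in the knockout. Its groups were separate, but the fitted log2 fold change of 2.37 (SE 0.432) is taken against values near background and is not a measured fold. Oasl2, which was not dim, had a log2 fold change of 1.23 (SE 0.240) with separate groups. Among the GBP and IRG GTPases 9 of 11 were higher, with a median of 0.40 that was 0.72 without the dim genes and 0.27 to 0.59 with 1 array left out. Of these 11 genes 5 lay wholly above, against 3.63% of all genes, with Gbp7 at 0.94 (SE 0.163).

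**Figure D4:**
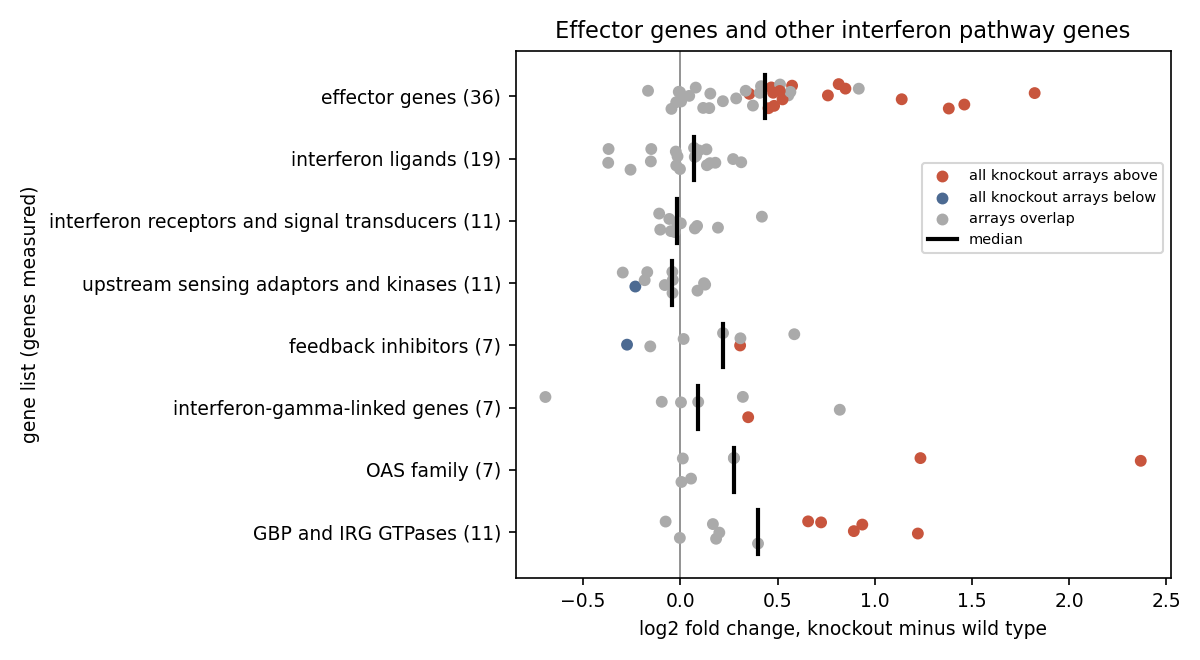
Log2 fold changes (knockout minus wild type, horizontal axis) of single genes in the effector group and in 7 lists of other interferon pathway genes, with black bars at the medians and colour showing whether the arrays of the genotypes overlap. The effector genes have a median of 0.43, while the ligand, receptor and sensing lists lie around 0, with medians of 0.07, -0.02 and -0.04.

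Markers of other cells were measured on the same arrays. Basal markers were high on all 6 arrays, with Krt14 between 13.21 and 13.51, and 2 of 9 had a higher and 7 a lower knockout mean, at a median log2 fold change of -0.05. Leukocyte markers had list means of 5.25 to 5.38 in wild type and 5.27 to 5.34 in the knockout, with 5 of 8 higher. Their median log2 fold change was 0.06, and Lcp1 had the largest difference, a log2 fold change of -0.78 (SE 0.316). Ptprc, which encodes CD45, was dim and read 3.28 to 3.43 in wild type and 3.35 to 3.75 in the knockout. Macrophage markers had means of 5.38 to 5.58 and 5.49 to 5.75, with 7 of 10 higher. Their median log2 fold change was 0.11, and the highest was that of Ctss, a lysosomal protease, at 0.71. Of these 10 markers 3 lay wholly above, Ctss among them, and 0 wholly below, against 3.63% and 4.05% of all genes. For plasmacytoid dendritic cells, known as strong interferon producers, the means were 4.37 to 4.59 and 4.34 to 4.51, with 2 of 5 higher. Lymphocyte markers had means of 4.68 to 4.93 and 4.70 to 4.80, with 2 of 8 higher. Endothelial markers had means of 5.32 to 5.56 and 5.44 to 5.54, with 4 of 8 higher. Fibroblast markers were higher in 7 of 7 cases, with means of 6.38 to 6.73 in wild type and 7.10 to 7.27 in the knockout. Their median log2 fold change was 0.54, where that of the 36 interferon genes was 0.43. Of these 7 markers 2 lay wholly above and 0 wholly below, against 3.63% and 4.05% of all genes. The fibroblast marker Dpt had a log2 fold change of 1.21. Lum read 3.98 to 4.23 in wild type, in the dim range, and 4.72 to 6.09 in the knockout. The part of these cells in the interferon genes was not tested.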

How the data were processed

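The deposited values are log2 expression per probe set. RMA and Transcriptome Analysis Console 4.0 are named in the submitters' processing notes. RMA includes a background correction, a normalization between arrays and a summary over probes. Per the labels' protocols, RNA was amplified with a whole-transcript kit and carried a biotin label. The log2 scale is that of RMA, the values are not centred per gene, and array medians lay between 5.22 and 5.39. Scan batches are not given in the sources used here. Arrays have no read depth, so their number limits the precision.

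Of 41345 rows, 23521 carried 1 gene symbol, 1814 several and 16010 none here. For each of 22180 genes the row of highest mean was kept. The genotype fit used limma 3.58.1 (R 4.3.3) with lmFit and eBayes, the prior variance following the mean. Tests were two-sided and adjusted by Benjamini-Hochberg over all genes at 0.05, after the fit was tested on simulated data. The shift planted there was larger than any log2 fold change measured here, so that check does not cover differences of the measured sizes. Genes in the lowest 25% by mean over all arrays were called dim. The members and lists were chosen with earlier results of these data known. In each role group the genes of largest and smallest log2 fold change are given by array. From each other list up to 4 genes of smallest p could be named. Fos, Egr1, Krt8, Krt19, Epcam and Ifit3b were named outside that rule, and Ifnar2, Jak1 and Tyk2 only as background.

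Both genotypes carry replicate numbers 1 to 3. Across genes, deviations from the group mean had r of 0.12, 0.25 and 0.13 between arrays sharing a number, and of 0.13 between wild type 1 and knockout 3, the highest across numbers. This is at most a hint at pairs from the data alone, since the meaning of a number is not in the labels, and a second fit took the number as a block. Alternatives changed the prior, array weights, normalization, dim genes, the row per gene and the motif gap, and left out each array in turn.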

Additional observations from a re-analysis of the deposited data

How the results depend on the processing

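The median log2 fold change of the members was 0.43 and positive under all 14 alternatives run. It lay between 0.34 (without knockout replicate 1) and 0.46 (without knockout replicate 3) when 1 array was left out, and between 0.39 and 0.48 under the other settings. The count of genes called over all genes was 0 in all 14. With the replicate block, as a paired fit, it was 0 of 22180 with a smallest adjusted p of 0.208. Neither the block nor the change of prior can alter a log2 fold change with equal groups. The median of 0.43 under these settings was therefore fixed in advance. Genes with separate groups numbered 14 to 20 over the alternatives, against 15, and leaving out an array makes separation easier by construction. Of the 36 genes, 27 kept their sign in all 6 fits that left out 1 array, among them all 15 with separate groups. For those 15 this was fixed in advance, since groups without overlap keep their sign whichever array is left out. The 9 that turned were Mx2, Bst2, Ifit2, Ifitm1, Ifitm2, Dhx58, Adar, Ifi35 and Trim30a. Allowing a gap of 1 to 3 bases raised the promoters with a response element match from 12 to 20. With 3 arrays per genotype, differences near the median SE of 0.173 over all genes are not resolved. Larger ones did not pass at an adjusted p under 0.05 either, Ifit1 at 1.82 included.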
